A study of Mus musculus with 19 samples.

Results

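The genes described are a group of cytokines and their relatives, Il6, Tslp, Lif, Il11, Csf1, Il33, Il1rl1, Socs3 and Clcf1, followed through all 11 groups of a study of NIH3T3, a mouse fibroblast line long kept in culture. They were taken by symbol from the array's gene annotation and were put together because Tslp and Il6 had moved in opposite directions when MEK, the kinase that activates ERK, was inhibited. Of the 9 genes, 8 had a probe set, 16 probe sets in all out of 45101 on the array, and Il1rl1 was not analysed here. A filter on low signal kept 7 of the 8, among 14996 of 18193 genes; Il33 did not pass it. RNA was measured on 19 arrays, 1 for each sample. Every culture had been held for 48 h in 0.1% serum, and 3 quiescent samples were taken at that point, named 1a and 1b of experiment 1 and 2 of experiment 2. The others received 50 ng/ml of basic FGF, a growth factor for fibroblasts, for 1, 4, 7 or 12 h, alone or with 20 µM U0126, an inhibitor of MEK, given at -0.5 h, before the FGF. In a further pair of samples U0126 was added after FGF, at 1 h in the sample measured at 7 h and at 7 h in the sample measured at 12 h. Groups at 4, 7 and 12 h, with and without early U0126, held 1 sample from each of the 2 experiments. Both groups at 1 h and both late additions held 1 sample, from experiment 1. Every sample without FGF was quiescent, so time in culture and FGF cannot be told apart, and no sample had U0126 without FGF.

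IL-6, LIF, IL-11 and CLCF1 are secreted ligands of the IL-6 family, which signal through receptors built around the shared subunit gp130, the product of Il6st. The receptors activate JAK kinases and the transcription factor STAT3, whose target SOCS3 feeds back on gp130 and the JAKs. TSLP is a cytokine of epithelial and stromal cells that acts on dendritic and lymphoid cells through the receptor chain CRLF2 paired with IL7R. CSF1 is the growth factor on which macrophages depend, and fibroblasts are among its known sources. IL-33 is an alarmin held in the nucleus, and Il1rl1 encodes its receptor ST2, which pairs with the product of Il1rap. Transcripts of Il6, Lif and related cytokines are short-lived, and proteins of the tristetraprolin family promote their decay.

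The stretches before the start sites of Il6 and Csf1 are shown first because these genes differed in opposite directions between samples with and without U0126. They are 250 bases each, from RefSeq on build GRCm38.p6, read 5′ to 3′ along the gene. Il6, at chr5:30013114-30019975, lies on the plus strand with its stretch at chr5:30012864-30013113, and Csf1, at chr3:107741048-107760469, lies on the minus strand with its stretch at chr3:107760470-107760719. Capitals mark matches to an AP-1 motif, a CRE core and the NF-kB consensus.
Il6: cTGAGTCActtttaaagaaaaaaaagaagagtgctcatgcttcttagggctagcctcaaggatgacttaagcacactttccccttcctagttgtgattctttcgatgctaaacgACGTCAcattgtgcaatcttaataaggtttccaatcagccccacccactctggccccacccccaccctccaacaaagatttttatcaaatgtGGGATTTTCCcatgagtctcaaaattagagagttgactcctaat
Csf1: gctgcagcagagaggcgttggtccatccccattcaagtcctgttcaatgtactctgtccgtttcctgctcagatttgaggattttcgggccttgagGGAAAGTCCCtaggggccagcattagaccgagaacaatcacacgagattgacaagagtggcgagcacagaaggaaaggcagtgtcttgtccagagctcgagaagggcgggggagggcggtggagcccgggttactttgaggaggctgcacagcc

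In the Il6 stretch the AP-1 motif, searched as TGANTCA, starts at -249 from the start site, the CRE core, searched as TGACGT and found on the minus strand, at -136, and the NF-kB match at -44. The Csf1 stretch held only the NF-kB consensus, on the minus strand at -154. Both strands of windows from 250 bases before to 50 after the start were searched, and 7 of the 9 genes had a window. Tslp and Clcf1 had none and were not searched. The AP-1 motif was also in the windows of Lif, at -228, and of Il11, at -98 in its second window. Lif held an NF-kB match at -178 and Socs3 a STAT motif, searched as TTC, any 3 bases and GAA, at -154. These motifs are common: 7.81% of 32841 mouse windows held the AP-1 motif, 7.51% the CRE core, 8.46% the NF-kB consensus and 8.3% the STAT motif. The matches describe the letters of the windows and were not measured as bound sites.

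Values are MAS5 signals on a linear scale, which compare samples for 1 probe set but not 1 gene with another. The array medians lay between 60.2 and 88.3, and a signal under the 40th percentile of its own array was not shown to be above background. Over all values that percentile was 45.2. All 8 fibroblast markers were above their array's 40th percentile on all 19 arrays. Of 9 leukocyte markers 5 passed the filter, Cd14, Csf1r and Lyz2 on all 19 arrays and Adgre1 and Cd68 on 18, while Ptprc, Itgam, Cd3e and Cpa3 failed it. Their summed signal was 1181 to 1412 in the quiescent samples, 1612 to 1798 with FGF alone, 1317 to 1503 with early U0126, and 1284 and 1826 in the late additions. Cd14 had the highest signals of these 9 markers, 620 to 1176, and so the largest part of that sum. It was higher than in quiescent cells at 4, 7 and 12 h of FGF by 0.72, 0.73 and 0.77 on the log2 scale (limma adjusted p = 0.00638, 0.0041 and 0.00155). The epithelial markers Epcam, Krt8, Krt18 and Cdh1 passed the filter, on 19, 15, 6 and 11 arrays, with Epcam at 187 to 566.9. Of endothelial markers Cdh5, Kdr and Tek passed it, on 9, 12 and 4 arrays, and Pecam1 failed it. The part of the cell type markers in the results was not tested. Dusp6, a phosphatase of ERK whose transcript follows ERK activity, had signals of 907 to 1560 in the quiescent samples, of 5826 to 9314 with FGF and of 719 to 1630 with U0126 at any time. Other transcripts that follow ERK activity did not all do the same. Fosl1, an AP-1 subunit, had 276.3 to 391.9 in the quiescent samples, 2854.9 to 4251.2 with FGF alone and 329.8 at 1 h with U0126, but 1102.5 to 1814.5 at 4 and 7 h and 662.7 and 918.1 at 12 h with early U0126. Against quiescent cells Fosl1 was thus higher with U0126 by 2.33, 2.10 and 1.25 at 4, 7 and 12 h (limma adjusted p = 3.07e-05, 5.01e-05 and 0.00402). Egr1, a transcription factor, had 2889 to 8039 in the quiescent samples. With FGF alone it had 26181.8 at 1 h and 3058.7 and 4648.1 at 4 h. At 7 h of FGF alone it had 1430 and 2108.3, and at 12 h 1131.7 and 1404.3, all below every quiescent sample. With early U0126 it had 1426.5 at 1 h and 43.4 to 343.9 at 4 to 12 h. Spry4, an inhibitor of receptor signalling, was low, at 46.7 to 143.0 over all arrays.

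FGF was followed by higher Tslp, Csf1 and Clcf1, while Lif and Il11 did not pass the test at any time. Il6 is among the 7 genes tested, but it passed the filter on low signal only through the 9 samples with U0126, so its FGF comparisons are between signals near background. Log2 differences from quiescent cells came from a limma fit over all groups, two-sided, with the Benjamini-Hochberg adjustment over all genes tested and a limit of 0.05. Whole cultures were measured, so more cells with a transcript and more of it per cell cannot be told apart. At 1 h of FGF 0 of the 7 tested genes passed, where 0.48% of all genes did in either direction. With the experiment as a block 1 passed, Socs3, and 236 of all 14996 genes did. At 4 h 3 of 7 were higher and 0 lower, and 8.89% of all genes passed, 3.91% of all genes upward. At 7 h the same 3 genes were higher, against 12.7% of all genes passing and 5.47% upward, and at 12 h again 3, against 20.3% and 8.54%. The medians of the 7 differences at 1, 4, 7 and 12 h were 0.78, 0.49, 0.97 and 0.79, and those of all genes 0.0016, -0.086, -0.046 and -0.016. These comparisons share the quiescent samples and are not independent of each other. The 3 called genes include Tslp, which was picked by a U0126 difference that the samples with FGF alone also entered. No enrichment is therefore read from these counts and medians. The labels do not say whether samples of a group were grown separately, and each p-value here reflects the spread among these samples alone, which may be technical.

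Of the 7 genes, Tslp had the largest difference from quiescent cells at each of 1, 4, 7 and 12 h of FGF. Its signal in the quiescent samples was 14.7, 76.7 and 54.7, 1 of them below its array's 40th percentile. After FGF it was 122.5 at 1 h, 438.0 and 454.1 at 4 h, 873.8 and 801.9 at 7 h, and 561.0 and 884.3 at 12 h. All 7 samples with FGF alone lay above all 3 quiescent samples. Tslp rose by 2.97 ± 0.306 (SE) on the log2 scale at 4 h, by 3.86 ± 0.306 at 7 h and by 3.61 ± 0.306 at 12 h, with limma adjusted p of 5.63e-05, 5.24e-06 and 2.58e-06. These are folds of 7.82, 14.5 and 12.2 after an offset of 13.6 was added to each signal, which understates changes of low signals. The 1 h group was 1 sample, whose spread was taken from the other groups, and differed by 1.21 ± 0.375, which did not pass (limma adjusted p = 0.294). Between 1 and 4 h of FGF Tslp rose by a further 1.76 ± 0.375 against that single sample (limma adjusted p = 0.0165), the only 1 of the 7 genes called in that comparison, where 5.17% of all genes passed and 2.72% upward. With the experiment as a block 3 of 7 were called there, and 2135 of all 14996 genes. That call of Tslp was lost without FGF 4 h of experiment 1 or of experiment 2 (limma adjusted p = 0.0604 and 0.0781). The samples with FGF alone also entered the U0126 difference by which Tslp and Il6 had been picked.

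With U0126 Tslp signals were low, near those of quiescent cells. Its signal was 35.9 at 1 h, 35.1 and 52.3 at 4 h, 22.1 and 25.4 at 7 h and 50.7 and 49.6 at 12 h. Late addition left 42.3 in the sample given U0126 at 1 h and 21.5 in the sample given it at 7 h. Every sample with U0126 was below every sample with FGF alone, and 3 of the 9 lay above their array's 40th percentile. Within an experiment the signal with U0126 was 29.3% of that without it at 1 h, 8.01% and 11.5% at 4 h, 2.53% and 3.17% at 7 h and 9.04% and 5.61% at 12 h. For the late additions it was 4.84% at 7 h and 3.83% at 12 h. These shares describe the difference by which Tslp was picked, and where the signal with U0126 was not above background they depend on it and are not measured levels. The sample given U0126 at 7 h can be set beside the 7 h samples with FGF alone, which had 873.8 and 801.9: 5 h after U0126 its signal was 21.5. In order of group means, Tslp stood at 838 ± 50.8 (SD, n = 2) at 7 h of FGF, 723 ± 229 at 12 h, 446 ± 11.4 at 4 h and 122.5 in the single 1 h sample. The difference of 12 h from 4 h did not pass the test (log2 difference 0.64 ± 0.306, limma adjusted p = 0.276), although the 12 h sample was the higher in both experiments. The values at 7 and 12 h do not separate, since the 12 h samples lie on either side of the 7 h samples. The remaining 7 groups, quiescent cells at 50.2 ± 6.36 among them, had means from 21.5 to 50.2.

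**Figure D1:**
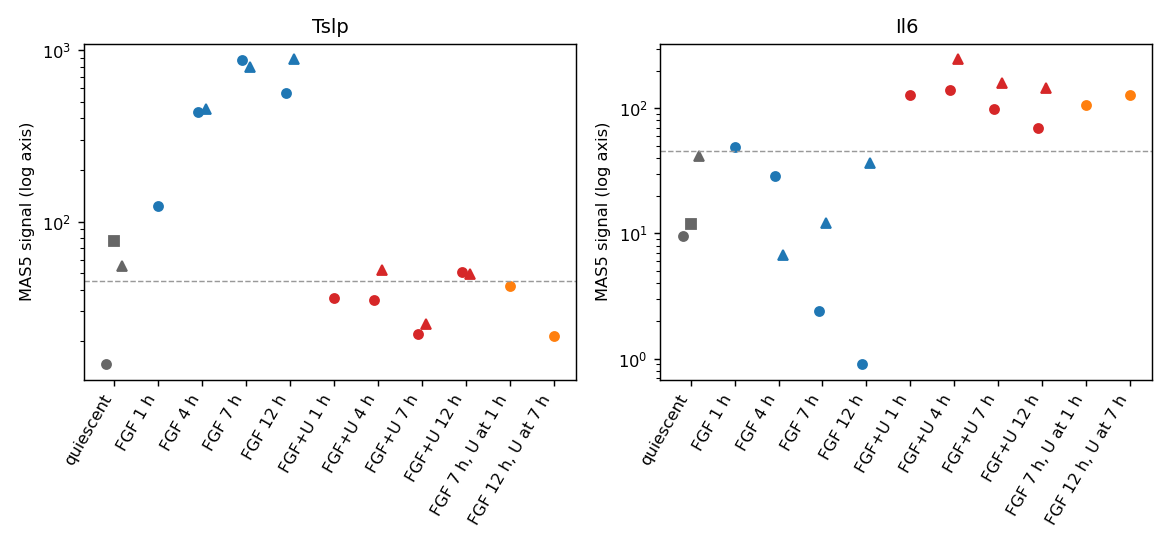
MAS5 signal (log axis) of Tslp and Il6 on each of the 19 arrays by group; circles are experiment 1 (1a for quiescent cells), squares quiescent 1b and triangles experiment 2, and the dashed line is the 40th percentile of all values, 45.2. Tslp sits between 122.5 and 884.3 in samples with FGF alone and at most at 52.3 with U0126, while Il6 sits at most at 49.2 without U0126 and between 69.0 and 246.5 with it.

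Il6 was low without U0126 and measurable with it. The quiescent samples had signals of 9.6, 12.0 and 41.2, all below the 40th percentile of their array. With FGF alone the signal was 49.2 at 1 h, 29.0 and 6.7 at 4 h, 2.4 and 12.1 at 7 h and 0.9 and 36.6 at 12 h, likewise all below it. The FGF comparisons of Il6 therefore say nothing of a change: its differences from quiescent cells were 0.78, -0.31, -0.85 and -0.44 on the log2 scale at 1, 4, 7 and 12 h, and none passed (limma adjusted p from 0.481 to 0.854). With early U0126 the signal was 126.5 at 1 h, 140.7 and 246.5 at 4 h, 98.1 and 159.3 at 7 h and 69.0 and 145.3 at 12 h. The late additions gave 105.8 and 127.0. All 9 samples with U0126 were above that percentile and above all 10 samples without it, and experiment 2 was the higher of the pair at each time. The differences between samples with and without U0126, given as a description because Il6 was picked by them, were 1.16 at 1 h, 2.77 at 4 h, 2.78 at 7 h and 2.09 at 12 h, and 2.56 and 2.38 for the late additions at 7 and 12 h. Against quiescent cells the early U0126 samples were higher by 1.94, 2.46, 1.93 and 1.65, also untested. As the samples without U0126 lay near background, these sizes depend on the offset added before the logarithm: that at 7 h ran from 1.71 to 4.24 over the settings tried. By group means Il6 was highest at 4 h with U0126, 193.6 ± 74.8 (SD, n = 2), and the other groups with U0126 had means between 105.8 and 128.7. The range of the 4 h pair, 140.7 to 246.5, overlaps those of the 7 and 12 h pairs. Within each experiment, however, the signal with early U0126 was lower at each later of these times. It was 140.7, 98.1 and 69.0 at 4, 7 and 12 h in experiment 1, and 246.5, 159.3 and 145.3 in experiment 2. These differences between times were not tested.

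Csf1 differed in the same directions as Tslp, by less on the log2 scale. Its probe set of highest signal, 1460220_a_at, gave 2013, 2371 and 2535 in quiescent cells, 3115 at 1 h of FGF, 4243 and 4204 at 4 h, 4802 and 4439 at 7 h and 4285 and 3857 at 12 h. Every sample with FGF alone was above every quiescent sample. Csf1 rose 1.79-fold at 4 h, 1.96-fold at 7 h and 1.72-fold at 12 h, or by 0.84, 0.97 and 0.79 ± 0.13 (SE) on the log2 scale, with limma adjusted p of 0.00106, 0.000262 and 0.000605. The 1 h difference of 0.40 ± 0.16 did not pass (limma adjusted p = 0.454). In a fit of all probe sets 3 of its 4 probe sets were called at each of 4, 7 and 12 h, while 1425155_x_at differed by 0.48, 0.30 and 0.36 and was not (limma adjusted p from 0.227 to 0.474). With early U0126 the signal was 2031 at 1 h, 2153 and 2431 at 4 h, 2522 and 2259 at 7 h and 2177 and 2367 at 12 h, all within the range of the quiescent samples. The tests against quiescent cells gave -0.21, -0.04, 0.02 and -0.05 at 1, 4, 7 and 12 h, each with limma adjusted p of at least 0.899. Late addition left 2727 at 7 h and 2709 at 12 h, above the quiescent samples and below every sample with FGF alone. The samples with U0126 were lower than those without by 0.61 at 1 h, 0.88 at 4 h, 0.95 at 7 h and 0.84 at 12 h, and by 0.76 and 0.58 for the late additions.

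Clcf1, whose product is a ligand of the CNTF receptor complex, rose with FGF on all 3 of its probe sets. The probe set with the highest mean, 1437270_a_at, read 584.8, 564.2 and 390.1 in quiescent cells, 871.5 at 1 h, 2181.5 and 956.7 at 4 h, 1471.6 and 958.8 at 7 h and 1461.9 and 1000.3 at 12 h. Experiment 1 was the higher at each time, and no FGF sample overlapped the quiescent ones. The rise was 1.58 ± 0.379 (SE) at 4 h, 1.30 at 7 h and 1.33 at 12 h on the log2 scale (limma adjusted p = 0.0169, 0.0359 and 0.022). Those calls were each lost without quiescent replicate 2 (limma adjusted p = 0.161, 0.263 and 0.181). They were also lost without the FGF sample of experiment 1 at 4, 7 or 12 h (0.183, 0.236 and 0.172). The probe set 1437271_at varied less between experiments, with 477.1, 542.5 and 608.9 in quiescent cells, 1253.1 and 1152.8 at 4 h, 951.8 and 1028.4 at 7 h and 947.9 and 815.8 at 12 h. In the fit of all probe sets it rose by 1.09 ± 0.156, 0.81 and 0.65 at those times (limma adjusted p = 0.000853, 0.00417 and 0.0102). The third probe set, 1450262_at, rose by 0.96, 0.67 and 0.86 (limma adjusted p = 0.0033, 0.0207 and 0.00245).

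The probe sets of Clcf1 disagreed on what was left with U0126. On 1437271_at the signal with early U0126 was 469.2 at 1 h, 643.4 and 630.6 at 4 h, 563.3 and 548.1 at 7 h and 553.3 and 562.5 at 12 h, and the differences from quiescent cells at 7 and 12 h were -0.0025 and 0.0031. On 1437270_a_at the same samples gave 600.4, 1151.3 and 529.9, 960.9 and 918.6, and 912.9 and 720.2. There the differences from quiescent cells were 0.71, 0.97 and 0.76 at 4, 7 and 12 h, which missed the limit (limma adjusted p = 0.342, 0.139 and 0.315) and passed it with the experiment as a block (0.0216, 0.00209 and 0.0154). On 1450262_at they were 0.40, 0.32 and 0.43, which did not pass in the fit of all probe sets (limma adjusted p = 0.206, 0.33 and 0.192). U0126 samples were below FGF samples by 0.53, 0.88, 0.33 and 0.57 at 1, 4, 7 and 12 h on 1437270_a_at. The same differences were 0.61, 0.90, 0.82 and 0.64 on 1437271_at and 0.68, 0.55, 0.35 and 0.43 on 1450262_at. In the sample given U0126 at 7 h, all 3 probe sets of Clcf1 read 0.14 to 0.20 below the FGF sample of the same experiment.

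Lif and Il11 had low signals throughout, though all 19 arrays read both above their 40th percentile. Lif encodes a ligand of the LIFR and gp130 pair, and its probe set 1421207_at read 52.3 to 72.3 in quiescent cells, 45.7 to 170.6 with FGF alone and 58.3 to 144.2 with U0126. Its differences from quiescent cells with FGF were 0.73, 0.49, 0.98 and 0.81 at 1, 4, 7 and 12 h, none passing (limma adjusted p = 0.722, 0.655, 0.238 and 0.292). A second Lif probe set had signals of 2.4 to 80.0. Il11, whose product signals through IL11RA and gp130, read 61.5 to 66.8 in quiescent cells, 43.7 to 125.7 with FGF alone and 61.4 to 128.4 with U0126. None of its FGF comparisons passed, with limma adjusted p from 0.432 to 0.987. Some groups of these genes did not overlap, which was seen in the values and did not pass the test. Lif read 123.1 and 144.1 at 7 h of FGF, above the quiescent samples and above the 69.6 and 90.7 at 7 h with early U0126. Il11 was above the quiescent samples at 4 h (83.0 and 88.1) and 12 h (70.5 and 125.7) of FGF. With early U0126 Il11 was above them too, at 4 h (67.5 and 119.3) and 12 h (94.7 and 106.6). How often other genes separate in this way was not counted. Il33 had signals from 0.9 to 54.4, on 0 arrays above the 40th percentile of that array, so it failed the filter and was not tested.

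Socs3 was high at 1 h with or without U0126 and low later with U0126. Its probe set 1455899_x_at read 1300, 1561 and 1374 in quiescent cells, 2769 at 1 h of FGF and 3131 at 1 h of FGF with U0126. With FGF alone the later samples read 1548 and 1862 at 4 h, 1883 and 1362 at 7 h and 1491 and 1558 at 12 h, overlapping the quiescent samples. With early U0126 they read 972 and 999 at 4 h, 868 and 741 at 7 h and 1013 and 861 at 12 h, all below the quiescent samples. The late additions gave 1013 at 7 h and 1194 at 12 h. The 1 h difference from quiescent cells was 0.98 ± 0.205 (SE) with FGF and 1.16 ± 0.205 with FGF and U0126, each from 1 sample, and neither passed (limma adjusted p = 0.0548 and 0.0504), while both passed with the experiment as a block (0.0106 and 0.00722). From 1 to 4 h of FGF Socs3 differed by -0.70 ± 0.205 (limma adjusted p = 0.0635, and 0.0218 with the block). The other 2 probe sets of Socs3 had their highest group mean in the same sample, FGF with U0126 at 1 h, at 916.8 and 1342. The _x_at probe sets can also bind related transcripts.

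Against quiescent cells, FGF with early U0126 was tested for the 5 genes other than Tslp and Il6. At 1 h 0 of 5 passed, where 0.0867% of all genes did, and at 4 h again 0 of 5, against 7.33%. At 7 h 1 of 5 passed, Socs3, with 9.02% of all genes passing and 5.29% downward, and at 12 h 0 of 5 passed, against 5.37%. Socs3 fell by 0.79 ± 0.167 (SE) on the log2 scale at 7 h (limma adjusted p = 0.0078). Its differences at 4 and 12 h, -0.50 and -0.58, missed the limit (0.0962 and 0.0614) and passed with the experiment as a block (0.0249 and 0.0115). The call at 7 h was lost without quiescent replicate 2 and without the U0126 sample of experiment 2 (limma adjusted p = 0.0544 and 0.0658), and the other 2 probe sets of Socs3 were not called there (0.129 and 0.441). With the block the counts were 1, 2, 2 and 2 of 5 at 1, 4, 7 and 12 h. Those over all 14996 genes were then 55, 2247, 2783 and 2157. Between 4 and 12 h of FGF alone 0 of 7 genes were called, where 6.55% of all genes were. The lowest limma adjusted p among the 7 there was 0.276, that of Tslp.

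**Figure D2:**
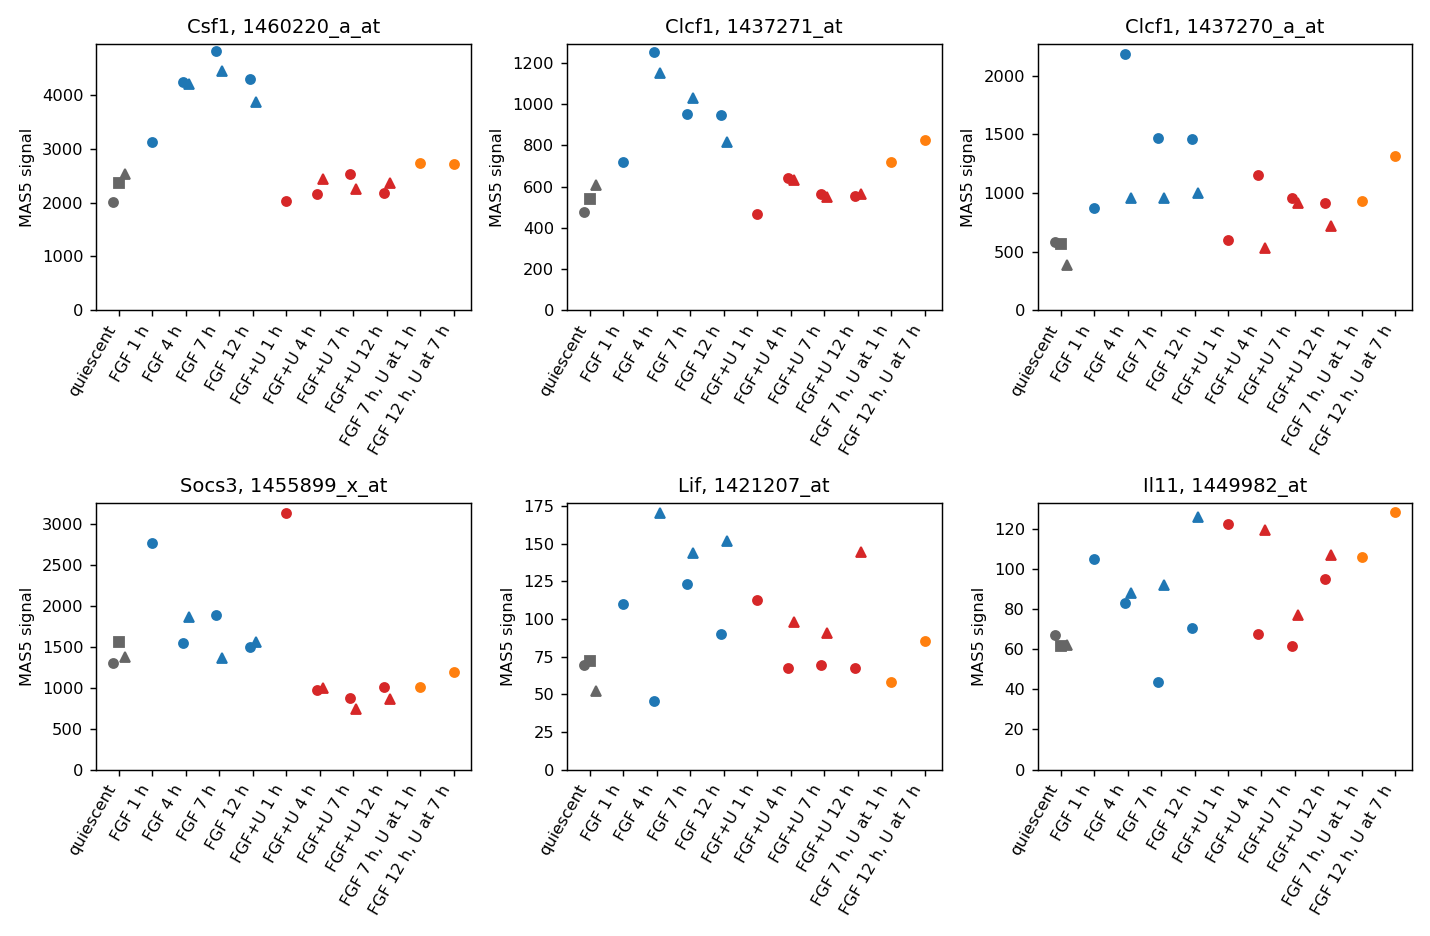
MAS5 signal on a linear axis from 0, by array and group, for Csf1, 2 probe sets of Clcf1, Socs3, Lif and Il11; circles are experiment 1 (1a), squares quiescent 1b and triangles experiment 2. Csf1 with FGF alone lies between 3115 and 4802 and with early U0126 between 2031 and 2522, Socs3 is highest at 1 h with 2769 and 3131, while Lif lies between 45.7 and 170.6 and Il11 between 43.7 and 128.4 over all arrays.

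Side by side, 2 of the 7 genes were at least 2-fold apart with early U0126 at each of 1, 4, 7 and 12 h, Tslp lower and Il6 higher. The share of all genes past 2-fold in either direction was 11.7%, 6.76%, 6.58% and 8.78% at those times. As this is the difference by which the pair was picked, nothing is read from it. With U0126 added at 1 h and measured at 7 h, 3 of 7 were past 2-fold, Il6 higher and Tslp and Lif lower (Lif by 1.03), against 10.5% of all genes. With addition at 7 h and measurement at 12 h, 2 of 7 were, Il6 higher and Tslp lower, against 10.9%. Csf1 was lower in all 9 pairs of samples from the same experiment, by 0.61 to 0.97. Socs3 was lower in 8 of the 9 pairs and higher by 0.18 at 1 h, and Clcf1 on 1437270_a_at was lower in all 9, by 0.06 to 0.91. Il11 had both signs, -0.25 to 1.06, and Lif did too, -0.93 to 0.45.

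**Figure D3:**
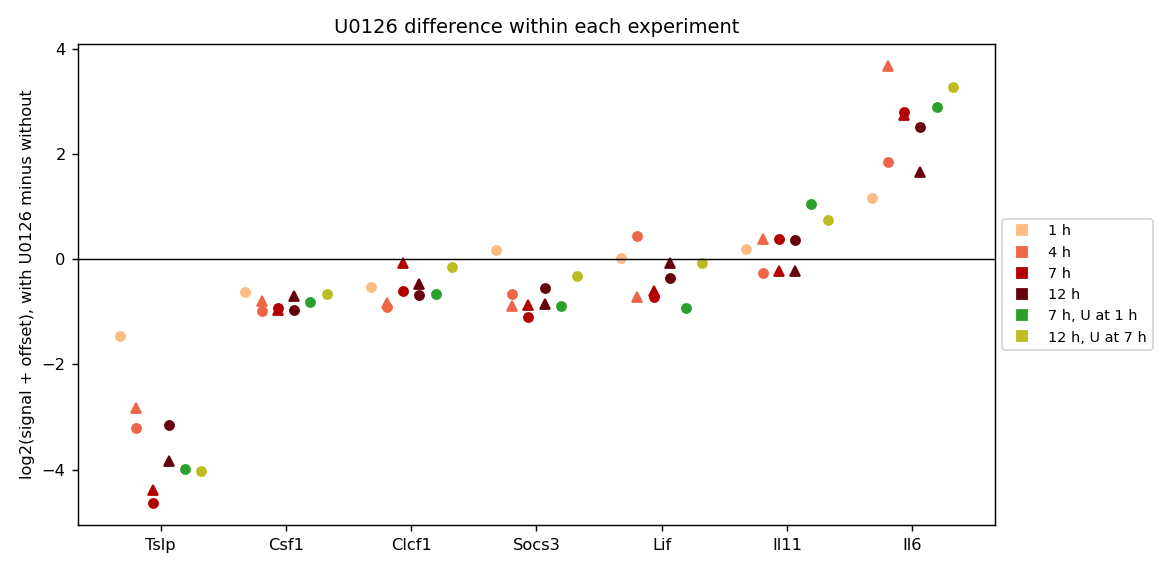
Log2 difference with U0126 minus without it (offset of 13.6 added to each signal) within each experiment for 7 genes; circles are experiment 1, triangles experiment 2, and colours give the time and the time of U0126 addition. Tslp lies between -4.64 and -1.46, Il6 between 1.16 and 3.68, Csf1 between -0.97 and -0.61, and Lif and Il11 lie on both sides of 0.

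Across the 11 group means, Tslp and Csf1 had a Pearson r of 0.927 and Clcf1 and Csf1 of 0.737, while Socs3 reached at most 0.532, with Lif. These describe groups that share controls and experiments. They rest on the same arrays as the U0126 difference by which Tslp and Il6 were picked, as do the likenesses that follow, so genes that move with or against U0126 can be near these members for that reason alone. Among 1906 other genes whose group means spanned at least 2 on the log2 scale, the most alike to Tslp were Frmd4a, a scaffold protein (r = 0.952), Sema7a, a membrane-anchored semaphorin (0.947), and Spred1, an inhibitor of RAS signalling (0.938). For Il6 they were Map3k8, a kinase upstream of MEK (0.96), and the transcription factors Nfil3 and Npas4 (0.958 each). For Csf1 they were Ereg, an EGF-family ligand (0.97), Htr1b, a serotonin receptor (0.947), and Prkg2, a cGMP-dependent kinase (0.944). For Lif, with its low signal, 4933416O17Rik (0.875), Prelid3a (0.857) and Necab3 (0.837) were closest.

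Among receptor chains of these cytokines and of related ones, Il6st, Il6ra and Osmr fell with FGF and Il1rap rose. Of 10 receptor genes tested, 1 rose and 0 fell at 4 h of FGF (2 rose with the experiment as a block), 1 rose and 2 fell at 7 h, and 1 rose and 3 fell at 12 h, with medians of 0.011, 0.077 and -0.28. Of all genes 8.89%, 12.7% and 20.3% passed at these times in either direction, with medians of -0.086, -0.046 and -0.016. With the block 2660 of 14996 genes passed at 4 h. Il6st, which encodes gp130 and had signals of 4625 to 10229, fell by 0.66 ± 0.139 at 7 h and by 0.86 ± 0.139 at 12 h (limma adjusted p = 0.00602 and 0.000468). Il6ra, the chain that binds IL-6, had signals of 144.3 to 697.1 and fell by 0.71 ± 0.193 and 0.93 ± 0.193 (limma adjusted p = 0.0248 and 0.00299). Osmr, the oncostatin M receptor, fell at 12 h by 0.64 ± 0.117 (limma adjusted p = 0.00126). Il1rap, the shared chain of the IL-1 and IL-33 receptors, rose by 0.75, 0.88 and 0.61 ± 0.141 at 4, 7 and 12 h (limma adjusted p = 0.00416, 0.000962 and 0.0067). Crlf2, the TSLP receptor chain, had signals of 1368 to 2066 and was not called in any comparison with quiescent cells, while Il7r, its partner, had 3.6 to 71.9. Csf1r, the receptor of CSF1, had 106.4 to 253.8 and was likewise not called. These 3 were named after their values were seen, as receptors of TSLP and CSF1.

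With FGF and early U0126, 0 receptor genes rose, and 2, 4 and 3 of 10 fell at 4, 7 and 12 h; with the experiment as a block 4 fell at each time. Of all genes 7.33%, 9.02% and 5.37% passed at these times in either direction. With the block 2247, 2783 and 2157 of 14996 genes did. Il6ra fell by 1.08, 1.26 and 1.38 (limma adjusted p = 0.00327, 0.000802 and 0.000571). Il6st fell by 0.79 and 0.88 at 7 and 12 h (limma adjusted p = 0.00228 and 0.00159). Il1r1, the signalling receptor of IL-1, fell by 0.64, 0.86 and 0.96 at 4, 7 and 12 h (limma adjusted p = 0.0242, 0.00342 and 0.00208). Il1rap, which had risen with FGF alone, fell by 0.53 at 7 h (limma adjusted p = 0.03).

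**Figure D4:**
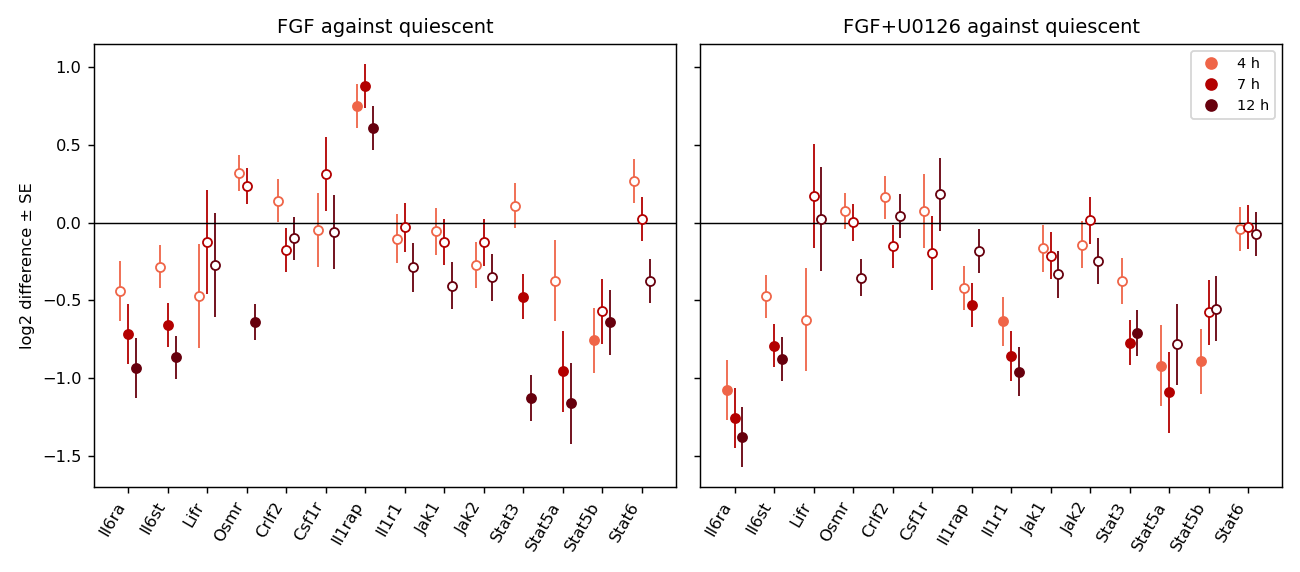
Log2 difference from quiescent cells ± SE of receptor and JAK-STAT genes at 4, 7 and 12 h of FGF (left) and of FGF with early U0126 (right); filled points have a limma adjusted p under 0.05. Il6ra and Il6st are below 0 in both panels, by up to 0.93 and 0.86 with FGF and up to 1.38 and 0.88 with U0126, and Il1rap is above 0 with FGF alone, at 0.61 to 0.88.

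Of 19 JAK-STAT genes tested, 1 rose and 3 fell at 4 h of FGF, 1 rose and 3 fell at 7 h, and 1 rose and 4 fell at 12 h, against 8.89%, 12.7% and 20.3% of all genes passing. With the block 2 rose and 5 fell at 7 h and 7 fell at 12 h, where it called 3251 and 4507 of 14996 genes. Their medians were -0.057, -0.13 and -0.35. Gab1, an adaptor of gp130 and growth factor receptors, fell by 1.33, 1.22 and 1.08 ± 0.178 (limma adjusted p = 0.000388, 0.000477 and 0.000563). Stat3 fell by 0.48 ± 0.145 at 7 h and 1.13 ± 0.145 at 12 h (limma adjusted p = 0.0433 and 7.52e-05), and Stat5a by 0.96 and 1.16 (0.0258 and 0.0051). With U0126, Stat3 fell by 0.77 and 0.71 at 7 and 12 h (limma adjusted p = 0.00378 and 0.00941). With U0126 1 of the 19 rose and 4 fell at 4 h, 1 rose and 3 fell at 7 h (7 with the block), and 0 rose and 2 fell at 12 h (4 with the block), against 7.33%, 9.02% and 5.37% of all genes passing. The block called 2783 and 2157 of 14996 genes at 7 and 12 h with U0126. Among 7 other SOCS genes 1 was called at each of 4, 7 and 12 h of FGF alone, against 8.89%, 12.7% and 20.3% of all genes, and it was Socs5, which rose by 0.97, 0.84 and 0.73 at 4, 7 and 12 h (limma adjusted p = 0.0201, 0.0321 and 0.0427). Socs5 fell with U0126 by 0.94 at 4 h and 0.88 at 7 h (limma adjusted p = 0.0274 and 0.0331), where 7.33% and 9.02% of all genes passed. With the block 1 of the 7 rose at 1 h of FGF, 2 rose and 1 fell at 4 h and 2 rose at 12 h, and with U0126 1 fell at 12 h. Of 14996 genes the block called 236, 2660 and 4507 at those times of FGF, and 2157 at 12 h with U0126.

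Of 10 known STAT3 targets tested, 1 rose at 1 h of FGF, 2 at 4 h, 2 at 7 h and 3 at 12 h, and 0 fell, against 0.48%, 8.89%, 12.7% and 20.3% of all genes passing. With the block 3 rose at 1 h, 1 fell at 7 h and 3 fell at 12 h, where it called 236, 3251 and 4507 of 14996 genes. The medians were 0.40, 0.12, 0.0062 and -0.031. Junb, which encodes another AP-1 subunit, rose by 2.19 ± 0.293 at 1 h (limma adjusted p = 0.00177), a value of 1 sample whose spread was taken from the other groups. Timp1, an inhibitor of matrix proteases, rose by 1.14, 1.08 and 1.16 ± 0.141 at 4, 7 and 12 h (limma adjusted p = 0.0002, 0.000206 and 4.55e-05), and Cebpd, a transcription factor, by 0.80, 0.71 and 0.73 ± 0.198 (0.0207, 0.0289 and 0.0169). With U0126, 0 of the 10 rose and 2 fell at each of 4, 7 and 12 h; with the block 4, 4 and 3 fell. Of all genes 7.33%, 9.02% and 5.37% passed, and with the block 2247, 2783 and 2157 of 14996 did. Timp1 was among those that fell, lower than in quiescent cells by 0.64 and 0.69 at 7 and 12 h (limma adjusted p = 0.0103 and 0.00932). Of 8 regulators of cytokine mRNA decay, 1 was called at 1 h of FGF, where 0.48% of all genes passed. It was Zfp36, which encodes tristetraprolin, rising by 1.68 ± 0.243 in that 1 sample (limma adjusted p = 0.00332). With the block 5 of the 8 rose there, and 236 of 14996 genes passed. At 12 h 2 of the 8 rose and 2 fell, against 20.3% of all genes passing (4 fell with the block, which called 4507 of 14996 genes). Hnrnpd, an RNA-binding protein that promotes decay, rose by 0.91 (limma adjusted p = 0.000578), and Zfp36l2 and Zfp36l1 fell by 0.82 and 0.60 (0.00184 and 0.0133).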

How the data were processed

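Per the labels and the submitters' processing notes, the authors deposited MAS5 signal intensity on a linear scale; the version and detection calls are not given in the sources used here. The deposited intensity columns had a mean, without the highest and lowest 2%, of 499.95 to 501.29. Of 45101 probe sets, 64 were controls, 34945 named 1 gene, 932 several and 9160 none; 204 of the symbols were not in the reference and 0 were updated. Values were log2(signal + 13.6), the 20th percentile. Quiescent 1a and 1b were averaged, leaving 18 columns. The filter asked for a signal over an array's 40th percentile on 2 or more arrays; the probe set of highest mean stood for a gene. All groups entered 1 limma 3.58.1 fit in R 4.3.3 with eBayes and a variance trend (7 residual and 7.42 prior degrees of freedom), tested on simulated data. P-values were adjusted over 14996 genes. The number of arrays limits precision.

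Members and gene lists were chosen with earlier results of these data known. Named are all probe sets of the members, the 3 genes most alike to each of Tslp, Il6, Lif and Csf1, the readouts of ERK activity, and of each list up to 3 passing genes with the largest changes in a comparison. Genes named by 1 comparison are also followed through others, and 3 receptors were named after their values were seen. Differences between samples with and without U0126 chose the members, so they were not tested. Samples of the same experiment number deviated together (r of 0.126 to 0.303, median 0.215, over 21 pairs of groups). The main fit did not use this pairing. A fit with the experiment as a block, which does, is given where it changed the call of a gene put together here or moved a count by over 1.5 times. It is not given for the lists under other observations. Alternatives tried were the normalization, offset, filter, probe set, variance trend, quiescent samples, groups fitted and leaving out each replicate. Motifs were searched in RefSeq windows.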

Additional observations from a re-analysis of the deposited data

Results flagged for a closer look

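For 2 genes, every sample at one time moved one way and every sample at another time the opposite way, each by at least 0.15 on the log2 scale within its experiment. These differences between times were not tested, and each 1 h value is 1 sample. How often genes beyond the 7 searched meet this rule was not counted, so nothing is read from there being 2. Il6 differed from the quiescent samples of its experiment by 1.37 at 1 h of FGF and by -0.61 and -1.09 at 7 h. Each of those signals was below the 40th percentile of its own array, so no change of Il6 is read from them.

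For Socs3, the sample with U0126 was 0.18 above the sample without it at 1 h, and -0.66 and -0.89 apart at 4 h, -1.10 and -0.87 at 7 h and -0.55 and -0.85 at 12 h. Against the quiescent samples of its experiment, FGF with U0126 gave Socs3 differences of 1.13 at 1 h, -0.55 and -0.45 at 4 h, -0.71 and -0.88 at 7 h and -0.49 and -0.67 at 12 h.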

How the results depend on the processing

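Tslp and Csf1 were called higher than in quiescent cells at 4, 7 and 12 h of FGF in 17 of 17 alternatives, with limma adjusted p up to 0.0018, 0.00053 and 0.00012 for Tslp and 0.044, 0.024 and 0.041 for Csf1. No called gene reversed, and the U0126 differences of Tslp and Il6 kept their sign in every alternative that could be computed. Counts of genes called that moved by over 1.5 times are given first, and where nothing is said the cause was not tested. At 1 h of FGF the count of 0 became 1 with 3 separate quiescent samples and with the replicate block, and ran from 0 to 1 when samples were left out. From 1 to 4 h the count of 1 became 0 with 3 separate quiescent samples and 3 with the block, and 0 when either 4 h sample was left out. With FGF and U0126 against quiescent cells, the count at 1 h went from 0 to 1 with quantile normalization, with 3 separate quiescent samples and with the block, and ran from 0 to 1 when samples were left out. At 4 h it went from 0 to 2 with the block. At 7 h it went from 1 to 2 with the block and with only the compared groups fitted, and ran from 0 to 1 when samples were left out. At 12 h it went from 0 to 1 with 3 separate quiescent samples and to 2 with the block, and ran from 0 to 1 when samples were left out. Genes at least 2-fold apart with U0126 went from 2 to 1 at 1 h with the offset at the 40th percentile, and from 2 to 4 at 7 h with the probe set of highest variance; leaving out samples gave 2 to 4. Smaller moves were those of the 3 calls at 4, 7 and 12 h of FGF, which became 2 without the variance trend, at 7 h without the filter, and in each case when 1 sample, quiescent 2 or the FGF sample of experiment 1, was left out. The 2-fold counts at 4 and 12 h with early U0126 and for the late addition at 12 h went from 2 to 3 with the probe set of highest variance, and at 4 h also when a sample was left out. That for the late addition at 7 h went from 3 to 2 or 4. Clcf1 lost its calls without the variance trend (adjusted p = 0.084, 0.125 and 0.0871 at 4, 7 and 12 h) and without the filter at 7 h (0.0514). Over all genes, the block gave 236 calls against 72 at 1 h of FGF and 2660 against 1333 at 4 h. The pairing changed no call of Tslp or Csf1 against quiescent cells. Sizes for Il6, near background without U0126, are limited by signal.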

Other observations

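Related genes outside the main pathway gave the following values against quiescent cells, with counts from the main fit. At 4, 7 and 12 h of FGF 8.89%, 12.7% and 20.3% of all genes passed in either direction. With FGF and early U0126 7.33%, 9.02% and 5.37% did. Among 12 tested genes of the IL-1 family and its signalling, 1 fell at each of 4, 7 and 12 h of FGF, and 0, 0 and 1 rose. The gene that fell was Il18, an IL-1 family cytokine, by 0.82, 1.15 and 1.39 on the log2 scale (limma adjusted p = 0.0171, 0.00157 and 0.000183). Myd88, the adaptor of the IL-1 and IL-33 receptors, was not called with FGF alone and rose with FGF and early U0126 by 1.49, 1.29 and 1.14 (limma adjusted p = 8.48e-05, 0.000209 and 0.000706). At 4, 7 and 12 h with U0126 it was the only 1 of the 12 called. Of 7 other stromal cytokines tested, 1 fell at 4 h of FGF and 1 rose at each of 7 and 12 h. With U0126 2, 3 and 0 of the 7 fell at 4, 7 and 12 h and 0 rose. Il15, a growth factor of lymphocytes, fell by 1.22 at 4 h of FGF and with U0126 by 1.86 and 1.34 at 4 and 7 h (limma adjusted p = 0.00689, 0.000361 and 0.00361). Kitl, the ligand of the receptor KIT, rose by 0.52 and 0.44 at 7 and 12 h of FGF (limma adjusted p = 0.0214 and 0.0337). Of 9 NF-kB factors and inhibitors, 0 were called at 4 h of FGF, 1 rose at 7 h and 2 fell at 12 h. Relb was among the 2 and fell by 1.14 (limma adjusted p = 0.0173). Nfkbia, which encodes an inhibitor of NF-kB, fell with U0126 by 0.86 and 0.88 at 4 and 7 h (limma adjusted p = 0.0257 and 0.021). Both other gp130 ligands tested, Osm and Ctf1, were not called in any comparison with quiescent cells.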
